A study of Mus musculus with 18 samples.

Results

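RAW cells given R848 together with apilimod were compared with RAW cells left in medium, at 1, 3, 7 and 22 h. RAW is a mouse macrophage-like cell line. R848 (resiquimod) is a small agonist of Toll-like receptor 7, apilimod blocks the lipid kinase PIKfyve, and API09 is named in the study's design as an inactive analog of apilimod. The series holds 18 arrays, of which 8 were chosen by their labels for the comparison: 1 array of R848+apilimod and 1 of medium at each of the 4 hours. Another 8 arrays, 1 of R848 and 1 of R848+API09 at each hour, served to tell what of the stimulation remained under the inhibitor and what was seen only with it, and are called the R848 controls. The remaining 2 arrays were of medium at 0 h and helped to estimate the spread. The labels give R848 at 0.1 mM, which is high for such an agonist and may be mistyped, and 1 uM of each compound. No array of apilimod without R848 was among the samples, so an effect of apilimod on resting cells and one on stimulated cells cannot be told apart.

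Toll-like receptor 7 sits in the endolysosome, where it senses RNA and, through the adaptor MyD88, activates NF-kB, MAP kinases and interferon regulatory factors. These turn on immediate early genes within an hour and then cytokines, chemokines and, partly through secreted interferon, antiviral genes. PIKfyve makes phosphatidylinositol 3,5-bisphosphate on endosomes and lysosomes. Loss of that lipid is known to swell these compartments, and lysosomal stress is known to move the transcription factors TFEB and TFE3 into the nucleus, where they bind the E-box CACGTG in promoters of lysosomal genes.

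Promoters of 5 genes are shown because they stand for the main patterns below: Cxcl2 and Lif, both strongly higher under R848+apilimod and under the R848 controls; Tent5c, the largest rise seen only with apilimod at 3, 7 and 22 h; and the lysosomal genes Clcn7 and Atp6v1a, also higher only with apilimod, which were chosen after their values and sequences were seen. The sequences are from RefSeq (GRCm38.p6) and run 5′ to 3′ from 250 bases before to 50 after the annotated start of the gene. Capitals mark the motifs found by a search of both strands: the NF-kB motif (GGG, any 2 bases, TTTCC) in Cxcl2, TGANTCA (AP-1) in Lif and CACGTG (the E-box) in Clcn7 and Atp6v1a. Over all 27025 promoters of this set 1.62% held the NF-kB motif, 7.93% TGANTCA and 7.24% CACGTG. The window of Tent5c, which lies at chr3:100489143-100489442 on the minus strand, held none of these, nor TGACGTCA (CRE) or the interferon response motif (GAAA, any 2 bases, GAAA). Sgk1, the next largest rise after Tent5c seen only with apilimod at 7 h, was picked by the same rule and is not printed. Its window held 1 interferon response motif and none of the other motifs, so no E-box. Cxcl2 lies at chr5:90903649-90903948 and Lif at chr11:4257318-4257617, both on the plus strand. Clcn7 lies at chr17:25133141-25133440 on the plus strand, and Atp6v1a at chr16:44139210-44139509 on the minus strand.
Cxcl2: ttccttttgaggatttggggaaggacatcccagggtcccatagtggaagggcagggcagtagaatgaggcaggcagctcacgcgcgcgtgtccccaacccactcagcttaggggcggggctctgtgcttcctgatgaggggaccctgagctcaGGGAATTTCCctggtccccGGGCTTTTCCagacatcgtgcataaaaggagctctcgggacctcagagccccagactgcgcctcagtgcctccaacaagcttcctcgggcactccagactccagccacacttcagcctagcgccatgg
Lif: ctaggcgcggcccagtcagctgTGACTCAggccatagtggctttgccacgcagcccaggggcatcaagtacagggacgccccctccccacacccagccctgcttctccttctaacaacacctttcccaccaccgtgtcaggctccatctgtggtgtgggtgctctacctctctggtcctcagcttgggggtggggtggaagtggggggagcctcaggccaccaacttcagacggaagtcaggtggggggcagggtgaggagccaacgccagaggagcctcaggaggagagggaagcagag
Tent5c: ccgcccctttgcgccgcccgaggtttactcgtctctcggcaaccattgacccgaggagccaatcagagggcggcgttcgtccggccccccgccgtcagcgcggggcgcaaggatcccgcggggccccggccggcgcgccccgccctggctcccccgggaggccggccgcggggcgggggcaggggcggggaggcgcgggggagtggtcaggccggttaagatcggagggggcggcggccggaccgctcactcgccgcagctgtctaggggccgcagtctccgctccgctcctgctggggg
Clcn7: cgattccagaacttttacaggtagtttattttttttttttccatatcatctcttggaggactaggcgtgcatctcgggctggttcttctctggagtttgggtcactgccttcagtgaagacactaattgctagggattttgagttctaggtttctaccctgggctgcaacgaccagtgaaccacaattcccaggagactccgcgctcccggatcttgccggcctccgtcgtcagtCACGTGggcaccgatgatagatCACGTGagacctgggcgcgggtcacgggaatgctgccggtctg
Atp6v1a: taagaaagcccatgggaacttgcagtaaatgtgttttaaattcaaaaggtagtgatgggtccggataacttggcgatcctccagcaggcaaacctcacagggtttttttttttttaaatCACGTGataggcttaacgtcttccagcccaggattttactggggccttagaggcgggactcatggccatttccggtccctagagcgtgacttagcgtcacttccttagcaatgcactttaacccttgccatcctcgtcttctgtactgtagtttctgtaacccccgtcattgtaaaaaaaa

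Hybridisation intensities were deposited unlogged, with 1 value for each probe set on each array. Differences are given as log2(intensity + 16), which draws dim genes towards 0. Below, a difference, rise or fall is in log2 units, and what an array read is an intensity. Of the genes on the array, 12257 passed a filter on dim values and were tested with limma, with Benjamini-Hochberg adjustment and a threshold of 0.05. Each arm had 1 array an hour, so the spread came from the 4 pairs of R848 and R848+API09 arrays and the 2 medium arrays at 0 h. R848 and R848+API09 are different treatments and not replicates, so any effect of API09 is counted in the spread. The labels do not say whether arrays came from separate cultures, and the p-values measure only how far these arrays vary, which may be technical variation. The median standard error of a difference between R848+apilimod and medium was 0.127. In a bulk culture a change in RNA per cell and a change in the makeup of the cells cannot be told apart. At 22 h the upper quartile of intensity was 100.9 on the R848+apilimod array, 103.6 on the R848 array, 87.0 on the R848+API09 array and 116.4 on the medium array, against 110.5 to 118.6 at the other hours. A sign of RNA quality moved too: the log2 difference between the 3′ and 5′ control probe sets of Actb was 0.38 with R848+apilimod, 0.25 with R848, 0.49 with R848+API09 and 0.33 in medium at 22 h, against 0.11 to 0.28 at the other hours, while that of Gapdh lay between -0.17 and -0.09 on all 18 arrays. The 18S rRNA control probes lay at 9.51, 8.77, 10.55 and 8.11 log2 units on the same 4 arrays of 22 h, against 8.11 to 10.18 at the other hours. The part of these in the 22 h differences was not tested. With quantile normalization, which gives all arrays the same distribution, 6515 genes were called at 22 h.

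The cells carried macrophage markers on every array. Of 12 markers 11 were measured, with a summed intensity of 31815 to 42705 on the R848+apilimod arrays and 38971 to 42339 on the medium arrays from 1 to 22 h, and Lyz2 (lysozyme) did not go under 14533 on any array. Markers of T cells (4 of 7 measured) summed to 95.3 to 124 with R848+apilimod and 102 to 113 in medium, epithelial markers (3 of 6) to 89.0 to 109 with R848+apilimod and 84.8 to 98.5 in medium, and the fibroblast marker Dcn (1 of 7 measured) lay between 18.9 and 35.7 on all 18 arrays. Of the B cell markers (2 of 6 measured) Pax5 stayed at 25.1 to 37.2, while Blnk, an adaptor also known in macrophages, was higher with R848+apilimod by 1.41 at 7 h (0.94 in the R848 controls) and by 1.58 at 22 h (0.13), when it was seen only with apilimod.

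The response to R848 in the presence of apilimod began with a small set of induced genes at 1 h and covered a large part of the transcriptome by 22 h. At 1 h R848+apilimod exceeded medium for 66 genes and lay under it for 7 (0.596% of the genes tested). The counts were 847 and 1178 at 3 h (16.5% in all), 1505 and 2336 at 7 h (31.3%), then 2640 and 3162 at 22 h (47.3%). As shares, 0.538%, 6.91%, 12.3% and 21.5% of genes were higher and 0.0571%, 9.61%, 19.1% and 25.8% lower at the 4 hours. The R848 controls differed from medium by similar numbers of genes at these hours, 85 (0.693%), 1890 (15.4%), 3654 (29.8%) and 5581 (45.5%). Of all genes 0.628%, 6.26%, 11.3% and 16.5% were higher and 0.0653%, 9.16%, 18.5% and 29% lower in the controls. Between R848+apilimod and the controls, 1128 genes differed at 3 h (9.2%), with 5.07% of genes up and 4.13% down. At 7 h 2405 differed (19.6%), 9.81% each way, and at 22 h 4232 (34.5%), with 20.2% up and 14.3% down.

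Each gene was then placed by 3 tests: R848+apilimod against medium, the R848 controls against medium, and R848+apilimod against the R848 controls. A response was counted as kept when both arms differed from medium in the same direction, which held for 66 genes (0.538%) at 1 h, 1153 (9.41%) at 3 h, 2374 (19.4%) at 7 h and 3747 (30.6%) at 22 h. It was counted as seen only with apilimod when R848+apilimod differed from medium and from the R848 controls while the controls did not pass against medium, which held for 0 genes at 1 h, 411 (3.35%) at 3 h, 805 (6.57%) at 7 h and 1338 (10.9%) at 22 h. It was counted as not seen when the R848 controls differed from medium and from R848+apilimod while R848+apilimod did not pass against medium, with 0, 263 (2.15%), 511 (4.17%) and 786 (6.41%) genes. The arms differed from medium in opposite directions, with a called difference between them, for 0, 60 (0.49%), 144 (1.17%) and 166 (1.35%) genes. Kept responses were not all equal in size. At 3, 7 and 22 h 100 (0.816%), 192 (1.57%) and 275 (2.24%) of them were called smaller with apilimod than in the R848 controls. Larger ones numbered 159 (1.3%), 476 (3.88%) and 1259 (10.3%). The other 894 (7.29%), 1706 (13.9%) and 2213 (18.1%) were not called apart from the controls. Both differences from medium use the same medium array, so a deviation of that array moves them together. With the controls set against medium at 0 h instead, which shares no array, 273 genes at 3 h and 796 at 22 h were seen only with apilimod. Without either the R848 or the R848+API09 array of 22 h, 3298 genes were called at 3 h for R848+apilimod against medium, 1934 were kept, 628 were seen only with apilimod and 409 were not seen. Without the R848 array of 22 h 1470 genes were not seen at 22 h, and without the R848 or the R848+API09 array of 3 h 172 and 170 were not seen at 3 h. At 22 h centring the arrays on their medians turned the split of the called genes to 4333 higher and 2488 lower.

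**Figure D1:**
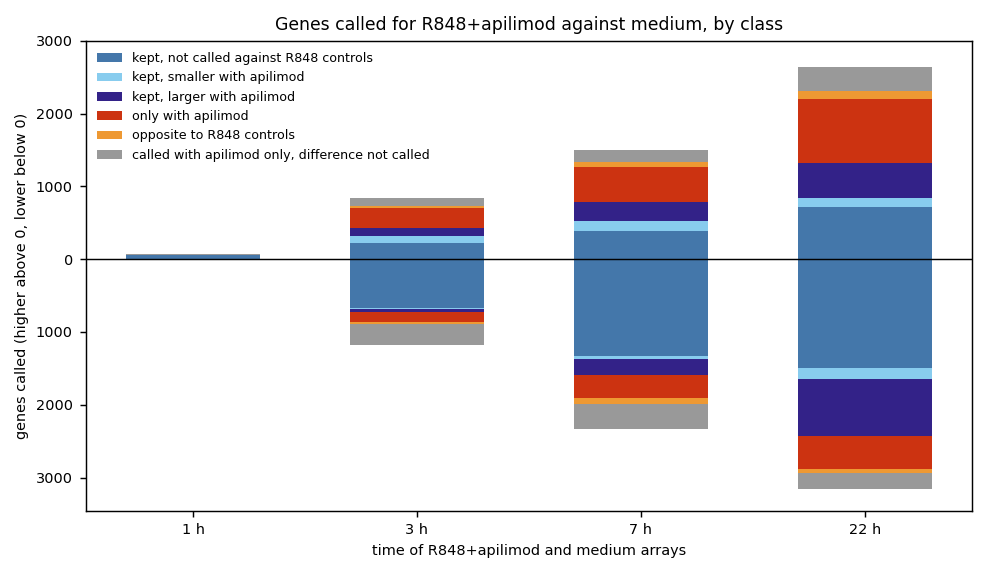
Number of genes called for R848+apilimod against medium at each hour (x axis), with higher genes above 0 and lower genes below 0 on the y axis; colours give the class of each gene relative to the R848 controls. At 1 h nearly all of the 73 called genes were kept, and genes seen only with apilimod grew from 411 at 3 h to 1338 at 22 h.

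**Figure D2:**
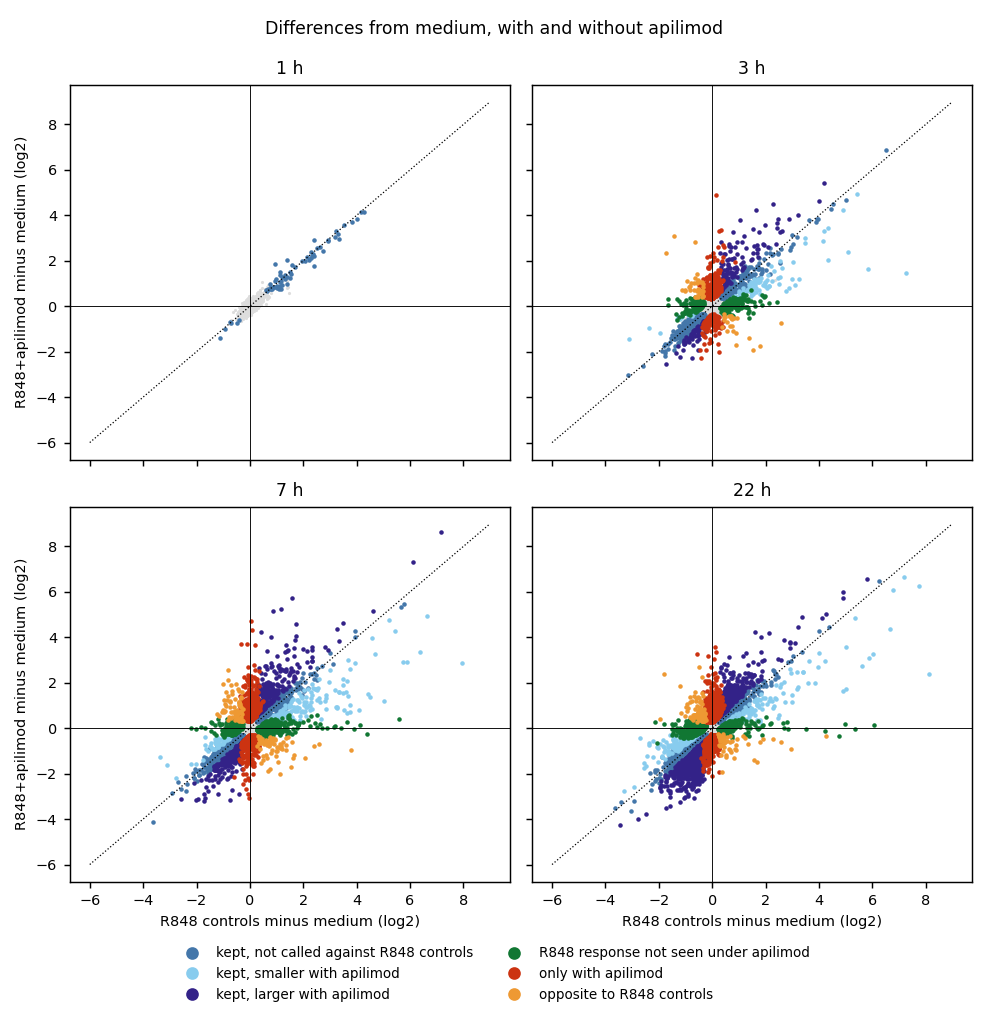
Each point is a gene, with the log2 difference of the R848 controls from medium on the x axis and that of R848+apilimod from medium on the y axis, at 1, 3, 7 and 22 h; the dotted line marks equal differences and grey points are in no class shown. The 1 h genes lie along the dotted line, while from 3 h on genes also lie along the vertical axis (only with apilimod) and the horizontal axis (not seen under apilimod).

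Which of the genes most induced by R848 stayed induced was also asked without a shared array. Genes called for the R848 controls against medium at 0 h and higher by at least 2 log2 units numbered 28 at 1 h, 84 at 3 h, 126 at 7 h and 102 at 22 h. Against the medium array of the hour, R848+apilimod was called higher for 28, 74, 102 and 80 of these, called lower for 0, 3, 5 and 5, and not called for 0, 7, 19 and 17. Their median difference was 2.50, 2.07, 1.49 and 1.95 with R848+apilimod, and 2.92, 2.72, 2.72 and 2.95 in the R848 controls against medium at 0 h, the values by which these genes were chosen. The genes lower by 2 log2 units in the controls numbered 10 at 3 h, 23 at 7 h and 70 at 22 h, of which R848+apilimod was called lower for 10, 21 and 61.

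At 1 h the immediate early response was present under apilimod. The chemokine gene Cxcl2, a neutrophil attractant, read 9956 with R848+apilimod, 9229.7 with R848, 10999 with R848+API09 and 544 in medium. All R848-treated arrays lay far above medium, and the R848+apilimod array lay between the controls. The difference from medium was 4.15 with R848+apilimod and 4.17 in the R848 controls (limma, adjusted p = 1.74e-07 and 3.54e-08). Nfkbiz, an atypical IkB protein that partners NF-kB p50, rose by 4.14, Tnfaip3, the feedback inhibitor A20, by 3.86, and Tnf by 3.71. Of 16 measured immediate early genes 14 were higher and 0 lower, against 66 genes or 0.538% over all genes tested, and their median difference was 2.37 against -0.01 over all genes. Dusp1, a phosphatase that switches off MAP kinases, rose by 3.60, the zinc finger factor Egr1 by 3.30, Zfp36, which destabilises cytokine mRNAs, by 3.17 and the antiproliferative Btg2 by 3.05. Later most of the group lay under the R848 controls: 10 of the 16 at 3 h and 10 at 7 h, with 2 and 3 above them. Of all genes 4.13% and 9.81% lay under the controls at these hours. The medians of the group from medium were 0.33 and 0.34, against 1.04 and 1.17 in the controls.

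Of the 7 genes lower at 1 h the 5 with the largest falls were Txnip, Snhg5, Lhfpl2, Cxcr4 and AI467606. Txnip, which binds thioredoxin and restrains glucose uptake, read 643 with R848+apilimod, 794 with R848, 775 with R848+API09 and 1742 in medium, so all R848-treated arrays lay under medium. It fell by 1.41 on the log2 scale with R848+apilimod and by 1.14 in the R848 controls (limma, adjusted p = 2.96e-05 and 4.89e-05). The falls of Lhfpl2 and of the chemokine receptor Cxcr4, -0.76 and -0.75, turned to 0.12 and 0.19 when the arrays of medium at 0 h took the place of the 1 h medium array. No gene passed for R848+apilimod against the R848 controls at 1 h in limma (0 genes, 0%; 165 at an unadjusted p of 0.05), and the smallest adjusted p was 0.114. For Cxcl2 the 95% interval of that difference ran from -0.35 to 0.32 log2 units and for Tnf from -0.36 to 0.14.

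At 3 h the inflammatory response split. Cxcl2, Tnf, Lif and Csf3 were strongly higher under R848+apilimod, some R848 targets such as Timp1 and Shisa3 did not pass against medium, and many genes of sterol synthesis and of the amino acid response were higher than in the R848 controls. The cytokine gene Tnf read 7408 with R848+apilimod, 7827 with R848, 7328 with R848+API09 and 311 in medium. The R848-treated arrays stood together, and the difference from medium was 4.50 with R848+apilimod and 4.54 in the R848 controls (limma, adjusted p = 4.14e-09 and 8.00e-10). The interval of the difference between the arms ran from -0.28 to 0.22. Csf3, which encodes granulocyte colony-stimulating factor, read 1354 with R848+apilimod, 603 with R848, 544 with R848+API09 and 16.4 in medium. It lay highest with apilimod, with differences from medium of 5.40 and 4.18 in the controls, and the arms differed by 1.22 (adjusted p = 5.49e-05, limma). Lif, the cytokine of the second promoter above, rose by 4.68 with R848+apilimod and by 5.01 in the controls. Nfkbiz rose by 4.95, the dendritic cell activation marker Cd83 by 4.26 and the atypical chemokine receptor Ccrl2 by 4.48.

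The largest rise seen only with apilimod at 3 h was Tent5c, a cytoplasmic poly(A) polymerase. It read 817 with R848+apilimod, 14.8 with R848, 14.5 with R848+API09 and 12.1 in medium. Only the R848+apilimod array departed from background, and the gene passed the filter on dim values through its R848+apilimod arrays, so that some difference was bound to be there. It differed by 4.89 ± 0.16 (SE) against medium (limma, adjusted p = 8.01e-09), while the R848 controls differed from medium by 0.13. Of the 274, 485 and 889 genes higher only with apilimod at 3, 7 and 22 h, 4, 7 and 11 passed the filter only through R848+apilimod arrays. Of the 153, 315 and 241 induced by R848 and not seen, 10, 28 and 25 passed it only through R848 control arrays. Ndrg1, a gene known to answer hypoxia and stress, rose by 3.36, the interleukin 7 receptor Il7r by 3.30, the Ral exchange factor Ralgds by 2.69 and Rab20, a GTPase of endosomes, by 2.59. On the lower side Fos, a subunit of AP-1, read 688 with R848+apilimod, 2594 with R848, 2451 with R848+API09 and 3359.6 in medium. At 1 h it had been above medium on all R848-treated arrays. At 3 h all of them lay under medium and the R848+apilimod array furthest, with a difference of -2.26 from medium, against -0.41 in the R848 controls, which did not pass. Cited2, a transcriptional coregulator, and Ptger4, a receptor of prostaglandin E2, were also lower only with apilimod, at -2.01 and -1.95.

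Among the responses not seen under apilimod at 3 h the largest were Shisa3 and Timp1. Timp1, an inhibitor of matrix metalloproteinases, read 22.2 with R848+apilimod, 144 with R848, 128 with R848+API09 and 19.0 in medium, so the R848+apilimod and medium arrays lay together and the controls apart. It differed from medium by 0.13 with R848+apilimod (limma, adjusted p = 0.784) and by 2.12 in the controls. Shisa3 differed by 0.16 and 2.41, the EGF receptor feedback inhibitor Errfi1 by 0.43 and 1.97, the activation marker Cd69 by 0.39 and 1.94, and the interferon-induced chemokine Cxcl10 by 0.05 and 1.88. Of the responses to R848 that were downward, Plekhm1, Angpt2 and Eya4 led those not seen. The largest falls under R848+apilimod at 3 h were C130050O18Rik at -3.02, Klhl6 at -2.64, the phosphatase Ptpro at -2.56, Fos and the homeobox gene Hhex at -2.26. For C130050O18Rik and Klhl6 the R848 controls lay at -3.17 and -2.60, and the difference between the arms did not pass.

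At 7 h more genes fell into each of these classes. Csf3 was the most induced gene, at 10322 with R848+apilimod, 3771 with R848, 3628 with R848+API09 and 9.8 in medium. The R848+apilimod array lay above the controls, which lay far above medium, with differences from medium of 8.65 ± 0.14 and 7.17 in the controls (limma, adjusted p = 5.48e-11 and 2.18e-11). Tnf read 8027 with R848+apilimod, 3692 with R848, 3529 with R848+API09 and 309 in medium: it had stayed up with apilimod, and the arms differed by 1.15 (limma, adjusted p = 2.30e-05). Cxcl2 rose by 7.33, the fatty acid carrier Fabp4 by 5.73, the prostaglandin synthase Ptgs2 by 5.46 and Saa3, a serum amyloid gene, by 5.34 under R848+apilimod. For Ptgs2, Saa3, Ccl2, Il1rn and Gadd45b, the 5 largest rises of kept genes whose arms were not called apart, the rises were 5.46, 5.34, 4.28, 4.02 and 3.32 with R848+apilimod, against 5.77, 5.66, 3.93, 3.94 and 2.99 in the controls.

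Only with apilimod, the kinase gene Sgk1 read 941 with R848+apilimod, 35.6 with R848, 33.3 with R848+API09 and 31.2 in medium at 7 h, with the R848+apilimod array alone above medium. It was higher by 4.34 (limma, adjusted p = 5.95e-09). At 3 h Sgk1 had moved in opposite directions, 3.07 with R848+apilimod and -1.42 in the controls. Fabp3, another fatty acid binding protein, read 509.9 with R848+apilimod, 29.3 with R848, 33.5 with R848+API09 and 25.3 in medium and rose by 3.67. Tent5c rose by 4.72, the enolase Eno2 by 3.71 and the myelin protein gene Pmp22 by 3.70, while Rcan1, an inhibitor of calcineurin, Fnbp1l and the adhesion molecule Nectin3 fell by 3.09, 2.90 and 2.68.

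The responses not seen at 7 h were led by Serpinb2 and Maf. Serpinb2, the plasminogen activator inhibitor of macrophages, read 15.0 with R848+apilimod, 1022 with R848, 1178 with R848+API09 and 7.2 in medium. The controls lay far above the R848+apilimod and medium arrays, which were both near background, and the differences from medium were 0.42 (limma, adjusted p = 0.132) and 5.58 in the controls. Maf, a transcription factor that drives Il10 in macrophages, differed by -0.26 and 4.39, the endothelial-type lipase Lipg by 0.12 and 4.12, Timp1 by -0.01 and 3.92, and the formyl peptide receptor Fpr2 by 0.28 and 3.64. The 5 largest falls under R848+apilimod were Hpgd, Gpr34, Abcg1, Ptpro and Kbtbd11. Hpgd, which inactivates prostaglandins, read 8.2 with R848+apilimod, 21.2 with R848, 14.7 with R848+API09 and 405 in medium and fell by 4.12 with R848+apilimod and by 3.64 in the controls, while Ptgs2, which starts their synthesis, rose in both.

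At 22 h Ptgs2 had the largest rise, with 3921 with R848+apilimod, 5088 with R848, 6296 with R848+API09 and 23.4 in medium. The controls lay somewhat above the R848+apilimod array, all far above medium, and the differences from medium were 6.64 and 7.17 in the controls (limma, adjusted p = 3.26e-10 and 1.91e-11). Cxcl2, Csf3, Lcn2 and Saa3 followed, with 6.59, 6.46, 6.27 and 6.09. Csf3, Acod1, which makes itaconate, the interleukin 1 receptor antagonist Il1rn, Gadd45a and Il1a were the largest rises of kept genes whose arms were not called apart, while Pdpn (podoplanin) rose further with apilimod, 5.98 against 4.92 in the controls. The largest falls were Kbtbd11 at -4.26, the splicing factor Sfpq at -4.01, the receptor Gpr34 at -3.79, the fractalkine receptor Cx3cr1 at -3.65 and Ankrd37 at -3.53.

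Only with apilimod at 22 h, the zinc transporter gene Slc39a2 read 342 with R848+apilimod, 22.4 with R848, 23.3 with R848+API09 and 19.1 in medium. It was at background on all other arrays of the hour and rose by 3.35 (limma, adjusted p = 2.65e-09), after 1.47 at 3 h and 2.78 at 7 h. Tent5c rose by 3.59, Il7r by 3.26, Fabp3 by 3.16 and the serpin Serpinb9b by 3.05, while the mitotic kinase gene Pbk, the ribonucleotide reductase subunit Rrm2 and Ms4a6c fell by 2.10, 1.91 and 1.91. Not seen under apilimod was the alarmin Il33, with 8.1 with R848+apilimod, 1540.0 with R848, 1313 with R848+API09 and 5.6 in medium. The difference from medium was 0.16 with R848+apilimod (limma, adjusted p = 0.289) and 6.06 in the controls, which alone departed from background. Serpinb2, Wfdc21, Timp1 and Fpr2 followed, with -0.03, 0.19, -0.33 and -0.13 with R848+apilimod, against 5.36, 4.97, 4.74 and 4.21 in the controls. Of the lower ones Rgs2, which limits G protein signals, Dcstamp and the arylsulfatase Arsb led, at 0.26, -0.66 and 0.16 with R848+apilimod, against -2.13, -2.06 and -1.82 in the controls. For Dcstamp this class depends on the arrays used: the difference under R848+apilimod was -1.82 with medium at 0 h as the reference (limma, adjusted p = 1.50e-04), and it passed without the R848 or the R848+API09 array of 22 h (adjusted p = 4.31e-05).

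**Figure D3:**
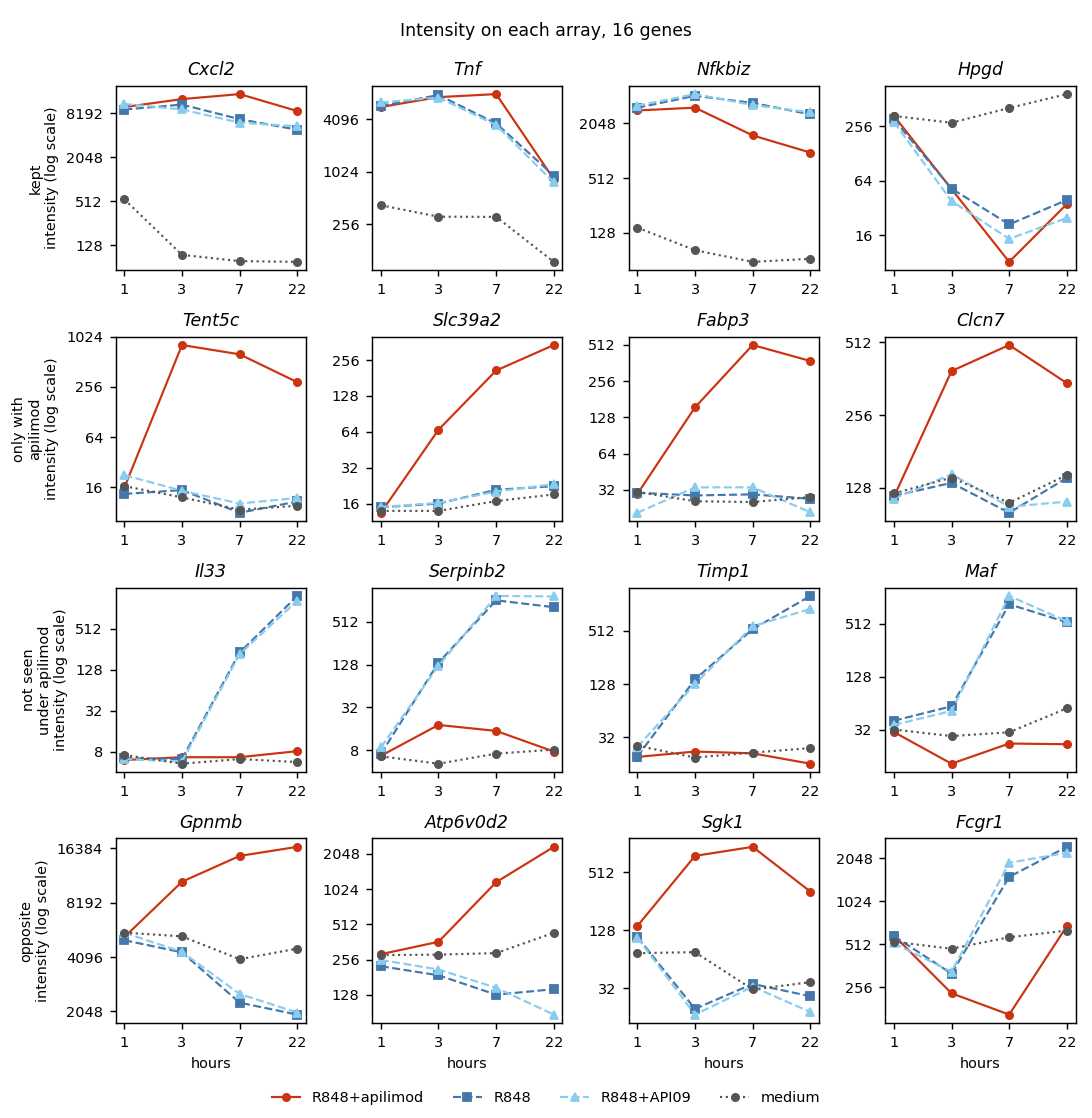
Intensity (log scale on the y axis) on each array at 1, 3, 7 and 22 h (x axis) for 16 genes, in rows of genes kept under apilimod, seen only with apilimod, not seen under apilimod and opposite to the R848 controls; lines join the arrays of an arm, 1 array a point. Cxcl2 and Tnf stay high with R848+apilimod, Tent5c and Slc39a2 leave background on R848+apilimod arrays alone, and Il33 and Timp1 leave it on the R848 and R848+API09 arrays alone.

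Taken over all hours, with hour as a block, 577 genes were higher with R848+apilimod than in medium and 1084 lower (13.6%; 4.71% and 8.84%), and 412 and 744 of them had the same sign at each of the 4 hours. The largest rises among these were Cxcl2 at 6.23 ± 0.38 (SE), Csf3 at 5.23 ± 0.96, Ptgs2 at 4.30, Nfkbiz at 4.25, Tnf at 3.95, Ccrl2 at 3.94, Socs3 at 3.81 and Saa3 at 3.78. The largest falls were C130050O18Rik at -2.09, Kbtbd11 at -2.00, the oxysterol-guided receptor Gpr183 at -1.89, the thymidine kinase Tk1 at -1.78, the sterol exporter Abcg1 at -1.62, Fbxo5, Cytip and Serpinb8. This count rests on how arrays are pooled: with the 8 arrays of both arms alone 0 genes passed in limma (1871 at an unadjusted p of 0.05), and without the 3, 7 or 22 h arrays it was 17, 16 and 73. Without the 1 h arrays it was 2647, and without either medium array of 0 h 1066. Within hours, 44 genes were called higher and 2 lower at every hour. The 44 include Cxcl2, Tnf, Nfkbiz, Tnfaip3, Dusp1, Atf3, Lif and Ptgs2, and the 2 were Txnip and AI467606. The 1 h call of AI467606 was marginal (limma, adjusted p = 0.0496). It was lost with quantile normalization, centring, no filter, the mean over probe sets or a pseudocount of 1, and without either medium array of 0 h or any R848 control array of 3 or 7 h (adjusted p 0.064 to 0.132). At 3, 7 and 22 h 450 genes were called higher and 642 lower throughout. Seen only with apilimod at each of these hours were 49 genes that were higher at 3 h (of which Sqle and Psph were lower at 22 h) and 8 that were lower at 3 h. Responses not seen at each of these hours were 11 upward and 7 downward. Directions also turned: 224 genes called higher at 3 or 7 h were called lower at 22 h, and 240 the other way round.

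Most cytokine genes induced by R848 were kept, some at a much lower level. Of 19 measured cytokine genes R848+apilimod was called higher for 6, 10, 12 and 12 at 1, 3, 7 and 22 h and lower for 0, 0, 1 and 2, where 0.538%, 6.91%, 12.3% and 21.5% of all genes were higher and 0.0571%, 9.61%, 19.1% and 25.8% lower. The counts of the gene groups below stand against the same shares. The medians of the cytokine genes were 0.16, 0.45, 1.18 and 0.83, against 0.33, 1.67, 2.20 and 1.02 in the R848 controls. Il1b, the precursor of interleukin 1 beta, read 150.0 with R848+apilimod, 9114 with R848, 8932 with R848+API09 and 43.5 in medium at 3 h and 343 with R848+apilimod, 12028 with R848, 11679.5 with R848+API09 and 32.7 in medium at 7 h. The R848+apilimod array lay above medium and far under the controls, with rises of 1.48 and 2.88 at these hours against 7.25 and 7.93 in the controls (limma, adjusted p = 6.32e-09 and 7.49e-09 between the arms). Il1a differed from medium by 1.64 with R848+apilimod and 5.83 in the controls at 3 h, but by 3.19 and 3.01 at 22 h. Il6 rose under R848+apilimod by 0.45, 1.41 and 2.49 at 3, 7 and 22 h, less than in the controls (1.90, 3.66 and 3.40). Il12b, the shared subunit of interleukins 12 and 23, was dim on all arrays: 9.2 with R848+apilimod, 36.6 with R848, 33.8 with R848+API09 and 10.5 in medium at 3 h, with only the controls called above medium. Il23a was called under R848+apilimod only at 22 h, at 0.78 with R848+apilimod and 0.06 in the controls, and Ebi3 was higher by 0.81 and 2.24 at 7 h. Ifnb1, the interferon beta gene, did not pass under R848+apilimod at any hour, with 0.33 at 3 h against 0.97 in the controls.

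Il10, the main anti-inflammatory cytokine of macrophages, crossed over in time. At 3 h it read 420.1 with R848+apilimod, 156 with R848, 149 with R848+API09 and 14.3 in medium, with the R848+apilimod array highest and a difference from medium of 3.85 against 2.48 in the controls. At 7 h it read 47.9 with R848+apilimod, 931 with R848, 900.1 with R848+API09 and 12.3 in medium, now with the controls highest and differences of 1.18 and 5.04. At 22 h it read 11.0 with R848+apilimod, 636 with R848, 635 with R848+API09 and 18.2 in medium, and R848+apilimod differed from medium by -0.34 (limma, adjusted p = 0.0163), a sign that turned to 0.08 with medium at 0 h in its place. Of 9 genes of the interleukin 10 and SOCS axis, 4 were higher and 0 lower at 7 h with a median of 0.24 (0.37 with medium at 0 h as the reference), against a median of 1.90 in the controls. Socs3, which blocks STAT3 signals, remained induced at 4.92 (6.63 in the controls), Stat3 at 1.41 and the IkB family member Bcl3 at 0.80 (3.53).

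Of 13 chemokine genes 3, 9, 9 and 9 were called higher at the 4 hours and 0, 1, 1 and 0 lower, with a median at 7 h of 2.44 against 2.32 in the controls. Besides Cxcl2, the monocyte attractant Ccl2 rose by 4.28, Ccl4 by 2.99 and Ccl7 by 2.95 at 7 h. Ccl5, which attracts T cells, kept a part of its rise: it read 709 with R848+apilimod, 5454 with R848, 6037 with R848+API09 and 80.2 in medium at 7 h, between medium and the controls, with 2.91 and 5.90. Of 14 genes of the NF-kB family and its feedback, 12 were higher and 0 lower at 3 h, with a median of 1.18 against 1.60 in the controls. Among them Tnfaip3 rose by 3.42 with R848+apilimod and by 2.44 in the controls, the adaptor Traf1 by 3.05 and 3.18, the subunit gene Rel by 1.54 and 2.31, and the inhibitor Nfkbia by 1.04 and 1.16. The NF-kB motif was present in 10.4% of the promoter windows of genes kept and higher at 1 h (5 of 48), 4.5% at 3 h (15 of 333), 3.38% at 7 h and 2.14% at 22 h. Over all genes tested the share was 1.64% (163 of 9933). Of genes higher only with apilimod at 3, 7 and 22 h it was 3.2%, 1.52% and 0.96%. Among those induced by R848 and not seen under apilimod it was 0.826%, 3.09% and 1.65%. These shares were not tested.

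Antiviral genes rose less under apilimod than in the controls at 3 and 7 h, and several were above the controls at 22 h (15 and 17 of 25 lower than the controls at 3 and 7 h, 11 higher and 4 lower at 22 h). Of 25 measured interferon-stimulated genes 15, 20 and 18 were higher with R848+apilimod at 3, 7 and 22 h and 0, 1 and 3 lower, while 24, 24 and 11 were higher in the controls. Their medians were 0.54, 0.78 and 0.74 with R848+apilimod, against 1.10, 1.49 and 0.20 in the controls. With medium at 0 h as the reference the R848+apilimod medians were 0.30 at 3 h and 1.21 at 7 h. Ifit1, which binds viral RNA, read 277 with R848+apilimod, 1389 with R848, 1444 with R848+API09 and 55.6 in medium at 3 h, with the R848+apilimod array between medium and the controls, and 127 with R848+apilimod, 68.9 with R848, 42.4 with R848+API09 and 31.8 in medium at 22 h, with the R848+apilimod array highest. It differed from medium by 2.03 and 1.58 with R848+apilimod, and by 4.32 and 0.56 in the controls. Rsad2 (viperin) read 651 with R848+apilimod, 93.9 with R848, 74.4 with R848+API09 and 87.1 in medium at 22 h and was higher by 2.69 (limma, adjusted p = 6.49e-07). It was 1 of 8 list members whose change was seen only with apilimod at 22 h. That count was 6 with quantile normalization, 4 with centring on the array median and 6 with medium at 0 h as the reference. The nucleic acid sensor Zbp1 and Ifit2 rose by 2.04 and 1.56 at that hour. The interferon response motif was in 11 of the 20 windows of this list and in 2.91% of all genes tested.

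Acute phase and antimicrobial genes were kept at 22 h, with 8 of 10 higher and 0 lower and a median of 2.26 against 1.69 in the controls. Lcn2, which withholds iron from bacteria, rose by 6.27 with R848+apilimod and 7.75 in the controls, Saa3 by 6.09 and 6.79, Acod1 by 4.45 and 4.36, and the receptor Clec4e by 2.77 and 1.33. The inducible nitric oxide synthase gene Nos2 rose by 2.11 and 1.69. Of 10 genes of matrix and plasminogen turnover 3 were higher and 2 lower at 7 h, with 4 responses not seen, and the median was -0.0030 against 2.13 in the controls. Here the coagulation factor gene F10 rose by 4.58 with R848+apilimod and 1.74 in the controls, the urokinase receptor Plaur by 2.10 and 2.52, and the protease Mmp14 by 1.99 and 1.67. Plau (urokinase) was lower in both, at -1.27 and -3.38. Of 11 costimulatory and adhesion genes 4 were higher and 2 lower at 22 h, among them Cd274 (PD-L1) at 3.87, Cd40 at 2.99 and the integrin Itga4 at -2.78.

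Many lysosomal genes rose with apilimod and not in the R848 controls, and some rose in both arms. Of 17 measured subunits of the vacuolar ATPase, which acidifies lysosomes, 7, 12 and 14 were higher with R848+apilimod at 3, 7 and 22 h and 0 lower, against 0, 4 and 4 higher and 2, 4 and 4 lower in the controls. Their medians were 0.27, 0.60 and 0.72 with R848+apilimod, against -0.09, -0.08 and -0.0045 in the controls and -0.05, -0.05 and 0.02 over all genes with R848+apilimod. Atp6v1a, the catalytic subunit whose promoter is shown above, read 4455 with R848+apilimod, 1902 with R848, 1917 with R848+API09 and 1959 in medium at 7 h. The R848+apilimod array alone stood above medium, by 1.18 (-0.04 in the controls; limma, adjusted p = 1.67e-06 between the arms). Atp6v1d rose by 1.83, Atp6v0a1 by 1.54 and Tcirg1, the a3 subunit, by 1.26. Atp6v0d2, an alternative d subunit of macrophages and osteoclasts, moved in opposite directions: at 22 h it read 2351 with R848+apilimod, 143 with R848, 86.6 with R848+API09 and 434 in medium, and differed from medium by 2.40 with R848+apilimod and -1.82 in the controls.

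Of 36 other lysosomal genes 9, 21 and 25 were higher with R848+apilimod at 3, 7 and 22 h and 2, 4 and 3 lower, with medians of 0.03, 0.33 and 0.54, against -0.14, -0.18 and -0.03 in the controls. In the controls 1, 2 and 11 of these genes were higher than medium at these hours and 4, 11 and 10 lower. Of all genes 16.5% were higher and 29% lower in the controls at 22 h. With medium at 0 h as the reference 9 were higher and 8 lower at 3 h (median -0.01), and 15 higher and 7 lower at 7 h (median 0.21). Against the medium array of the hour, 13 were seen only with apilimod and 6 were opposite to the controls at 7 h. At 22 h these counts were 12 and 5, and 9 were kept. With medium at 0 h as the reference 7 were seen only with apilimod at 7 h and 10 at 22 h, when 18 were kept. Responses not seen under apilimod at 7 h numbered 8 with that reference and 1 against the 7 h medium array. Clcn7, the lysosomal chloride-proton exchanger, read 389 with R848+apilimod, 134 with R848, 146 with R848+API09 and 141 in medium at 3 h and 499 with R848+apilimod, 101 with R848, 107 with R848+API09 and 111 in medium at 7 h. The controls stayed with medium, and R848+apilimod was higher by 1.37, 2.02 and 1.18 at 3, 7 and 22 h (limma, adjusted p = 3.46e-05, 8.37e-07 and 3.13e-05). Ctsk (cathepsin K) read 5202 with R848+apilimod, 922 with R848, 945 with R848+API09 and 1094 in medium at 7 h and rose by 2.23. The alpha-galactosidase Gla and the membrane glycoprotein Gpnmb rose by 1.95 and 1.89, while the controls lay at -0.54 and -0.71. Lamp1 did not pass at 7 h (0.20), and Sgsh, a sulfamidase, was lower in both arms (-0.87 and -0.70).

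The folliculin and Rag GTPase proteins govern TFEB and TFE3 at the lysosome, and several of their genes rose. Of 15 measured genes of this pathway 7, 8 and 4 were higher at 3, 7 and 22 h and 2, 3 and 3 lower, with medians of 0.23, 0.86 and -0.07, against -0.10, 0.11 and -0.22 in the controls, the 22 h median under R848+apilimod being 0.18 with medium at 0 h as the reference. In the controls 1, 6 and 1 were higher and 3, 3 and 6 lower. At 3 h 0 were kept, 4 were seen only with apilimod and 4 were opposite to the controls. At 7 h 8 were kept and 3 were seen only with apilimod. Fnip2, a folliculin partner, read 2866 with R848+apilimod, 242 with R848, 248 with R848+API09 and 395 in medium at 3 h, above medium with R848+apilimod and under it in the controls (2.81 and -0.66). Fnip1 rose by 1.03 and the stress gene Sesn2 by 0.97 at 3 h, while Mitf itself was lower, at -0.91 at 3 h and -2.23 at 7 h. Tfeb was lower, at -0.48 at 7 h, near the -0.39 of the controls. Of 12 genes of the PIKfyve complex and its lipid 2 were higher and 2 lower at 7 h, where 12.3% and 19.1% of all genes were: Pikfyve at 0.78 and the lysosomal channel gene Tpcn2 at 1.35, both seen only with apilimod, and Tpcn1 and the phosphatase gene Fig4 at -1.29 and -0.44, both also lower in the controls. Of 24 autophagy genes 3, 8 and 12 were higher at 3, 7 and 22 h and 0, 2 and 2 lower, led at 7 h by the cargo receptor Sqstm1 at 2.60 (1.17 in the controls) and by Atg13, Atg12 and Atg7 at 1.00, 0.82 and 0.43. The call of Atg7 was lost with no filter or a pseudocount of 1. It was also lost without either medium array of 0 h or any R848 control array of 1 or 3 h.

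The E-box CACGTG was in the promoter windows of 11 of 32 lysosomal genes (34.4%) and 4 of 11 vacuolar ATPase genes (36.4%) that had a window, whatever their change. It was in 17.8% of those higher only with apilimod at 3 h (39 of 219), 17% at 7 h (67 of 394) and 12.3% at 22 h (90 of 729). Of those induced by R848 and not seen under apilimod it was in 3.31% at 3 h (4 of 121), 9.27% at 7 h (24 of 259) and 6.59% at 22 h (12 of 182), and of those kept and higher in 11.7%, 12.9% and 9.39%. Over all genes tested the share was 9.9% (983 of 9933), and over all 27025 promoters of the RefSeq set 7.24%. These shares are descriptions, and no test was made of them.

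**Figure D4:**
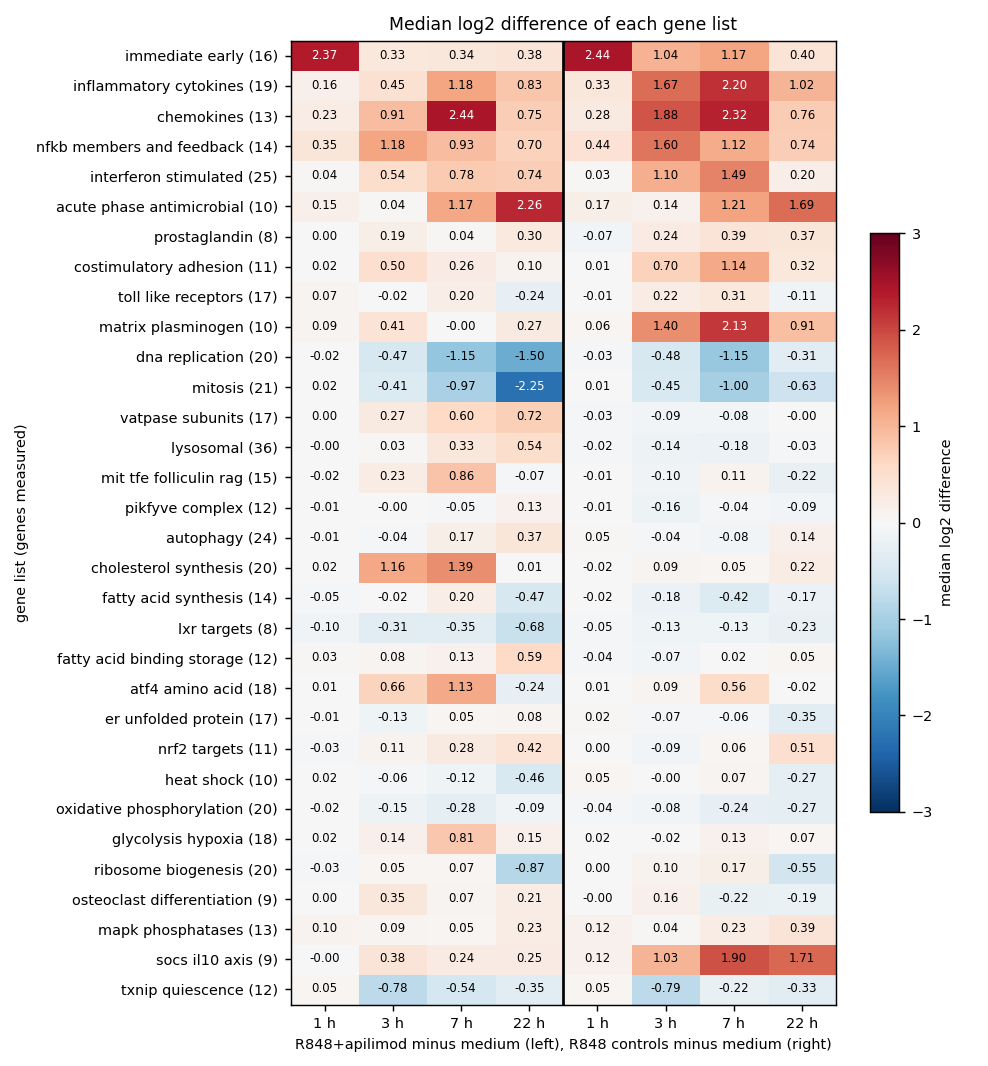
Median log2 difference from medium of the genes of each list (rows, with the number of genes measured), for R848+apilimod on the left and the R848 controls on the right, at 1, 3, 7 and 22 h; red is higher and blue lower than medium. Vacuolar ATPase subunits reach 0.60 at 7 h with R848+apilimod against -0.08 in the controls, cholesterol synthesis 1.39 against 0.05, and matrix and plasminogen genes -0.0030 against 2.13.

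Sterol synthesis genes rose with apilimod at 3 and 7 h, and at 22 h as a group lay near medium. Of 20 measured genes 16 and 19 were higher at 3 and 7 h and 0 lower, and at 22 h 4 were higher and 6 lower (10 and 8 with medium at 0 h as the reference). The medians were 1.16, 1.39 and 0.01, against 0.09, 0.05 and 0.22 in the controls, and 14 of the 20 were seen only with apilimod at 7 h. With medium at 0 h as the reference 9 were seen only with apilimod at 7 h and 7 were kept. At 3 h 8 of the 20 were higher and 1 lower in the controls, with 8 kept and 6 seen only with apilimod. The last count was 3 with medium at 0 h as the reference. Hmgcs1, the synthase that feeds the mevalonate pathway, read 2666 with R848+apilimod, 635 with R848, 649 with R848+API09 and 517 in medium at 3 h and 513 with R848+apilimod, 1074 with R848, 1133 with R848+API09 and 805 in medium at 22 h. It was highest with apilimod at 3 h and lowest with it at 22 h, by 2.33 and -0.63 against medium (limma, adjusted p = 5.19e-08 and 3.36e-04). Insig1, a sterol sensor, rose by 2.31, the squalene synthase Fdft1 by 1.73 and Cyp51 by 1.69 at 3 h, and at 7 h Lss rose by 1.89, Mvd by 1.86, Hsd17b7 by 1.76 and Idi1 by 1.71. At 22 h Idi1 and the sterol carrier Stard4 were lower, at -1.49 and -1.23.

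Of 8 targets of the oxysterol receptor LXR 0, 1 and 1 were higher and 4, 4 and 5 lower at 3, 7 and 22 h, with a median of -0.35 at 7 h. Abcg1, which exports sterol, fell by 3.16 at 7 h (-0.75 in the controls) and Mylip, a ubiquitin ligase, by 1.81, while Abca1 was lower with R848+apilimod and higher in the controls, at -0.70 and 2.58. With the mean over probe sets the difference of Abca1 under R848+apilimod was -0.37 and did not pass. Among 12 genes of fatty acid binding and storage 5 were higher and 3 lower at 7 h. Fabp4 read 2158 with R848+apilimod, 108 with R848, 106 with R848+API09 and 25.0 in medium, with the R848+apilimod array above the controls and these above medium, and the lipid droplet gene Hilpda rose by 3.35 (1.33 in the controls). Cpt1a, which brings fatty acids into mitochondria, fell by 1.72 with R848+apilimod and by 1.28 in the controls.

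Genes of the ATF4 amino acid response rose in both arms, many of them further with apilimod (10 of 18 higher than the controls at 3 h and 15 at 7 h). Of 18 measured genes 13 were higher with R848+apilimod at 3 h and 0 lower, and 13 and 0 at 7 h, while 4 and 12 were higher and 1 and 2 lower in the controls. The medians were 0.66 and 1.13, against 0.09 and 0.56 in the controls. The cystine carrier Slc7a11 rose by 3.45, Ddit4, an inhibitor of mTORC1, by 2.64, Chac1 by 2.20 and the factor Cebpb by 2.03 at 7 h, with 2.93, 1.08, 1.65 and 1.42 in the controls. Trib3 rose by 1.22 at 3 h (0.03 in the controls). At 22 h 5 were higher and 7 lower, a median of -0.24 that was 0.85 with medium at 0 h in place of the 22 h medium array. Of 17 genes of the endoplasmic reticulum response only 1 and 2 were higher and 2 and 3 lower at 3 and 7 h, where 9 and 5 were lower against medium at 0 h. Of 18 genes of glycolysis and hypoxia 12 were higher and 0 lower at 7 h, with a median of 0.81 against 0.13 in the controls. With medium at 0 h in place of the 7 h medium array 9 were higher and the median was 0.29. The list was led by Ndrg1, Hk2, Slc2a1 and Pfkfb3 at 3.18, 1.70, 1.58 and 1.47.

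**Figure D5:**
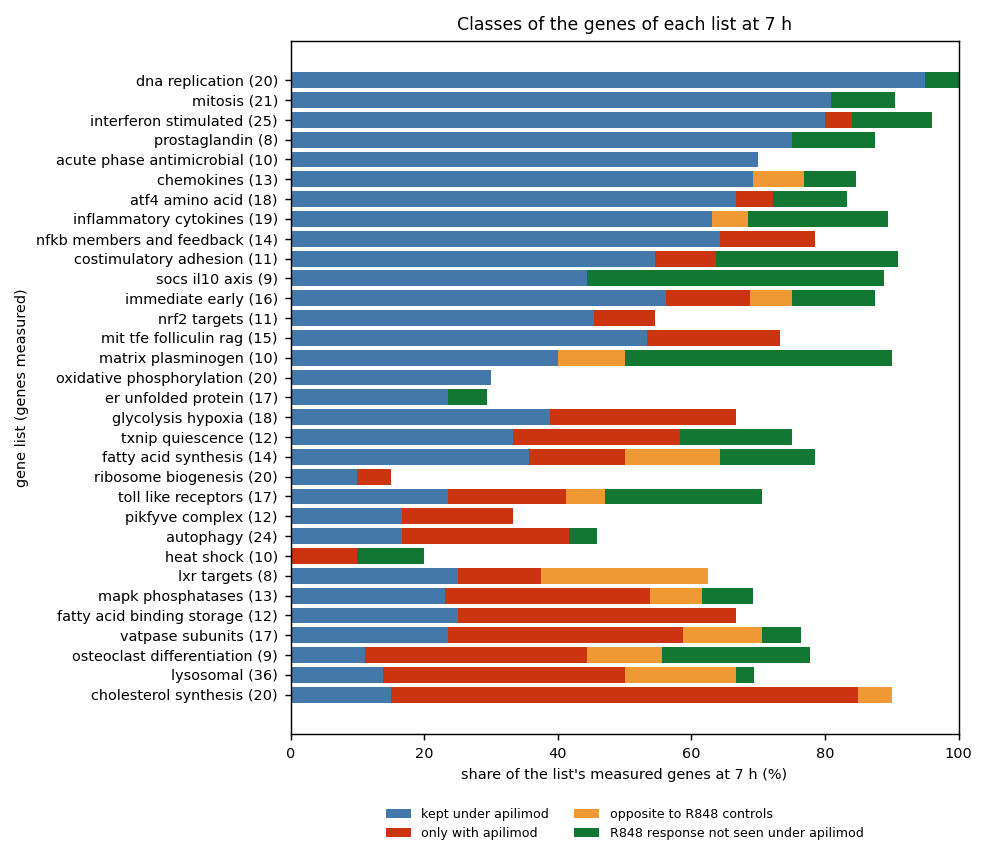
Share of the measured genes of each list (y axis, with the number measured) that at 7 h were kept, seen only with apilimod, opposite to the R848 controls, or an R848 response not seen under apilimod (x axis, percent; the blank rest is in none of these classes). Of the 20 DNA replication genes 19 were kept, and of the 20 cholesterol synthesis genes 14 were seen only with apilimod (9 with medium at 0 h as the reference).

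DNA replication and mitosis genes fell in both arms, and at 22 h were lower with apilimod than in the controls (18 of 20 and 21 of 21). Of 20 replication genes 13, 19 and 19 were lower with R848+apilimod at 3, 7 and 22 h and 0 higher, against 13, 20 and 11 lower in the controls. Of all genes 9.61%, 19.1% and 25.8% were lower with R848+apilimod at these hours. The medians were -0.47, -1.15 and -1.50 with R848+apilimod and -0.48, -1.15 and -0.31 in the controls. Mcm7, a subunit of the replicative helicase, read 1282 with R848+apilimod, 1353 with R848, 1339 with R848+API09 and 3820.4 in medium at 7 h, with all R848-treated arrays together under medium, and 641 with R848+apilimod, 2119.7 with R848, 2008 with R848+API09 and 3308 in medium at 22 h, with the R848+apilimod array far under the others. At 22 h it fell by 2.34 with R848+apilimod and by 0.68 in the controls (limma, adjusted p = 1.66e-07 between the arms). All 21 measured mitosis genes were lower with R848+apilimod at 22 h, with a median of -2.25 against -0.63 in the controls, where 19 were lower. Ccnb2 (cyclin B2) read 222 with R848+apilimod, 1019.8 with R848, 899 with R848+API09 and 2004 in medium, and Kif20a, Nek2 and Nusap1 fell by 3.02, 2.92 and 2.62. Of 20 genes of ribosome biogenesis 1 was higher and 16 lower at 22 h, with a median of -0.87 (-1.31 with medium at 0 h as the reference) against -0.55 in the controls. The 1 higher gene was Myc, which drives such genes, at 2.57, and the largest falls were Dkc1, Polr1b and Nop56 at -1.96, -1.54 and -1.44.

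The receptor and its kin were measured too. Tlr7, the receptor of R848, did not pass at 1, 3 or 7 h and at 22 h read 226 with R848+apilimod, 171 with R848, 133 with R848+API09 and 659 in medium, lower in all R848-treated arrays, with differences of -1.48 with R848+apilimod and -2.02 in the controls (limma, adjusted p = 7.79e-06 and 4.26e-07). Of 17 genes of Toll-like receptors and their adaptors 4 were higher and 7 lower at 22 h, where 21.5% and 25.8% of all genes were, among them Tlr13 at -1.77, Tlr4 at -1.66 and the inhibitory kinase gene Irak3 at 1.53. Of 13 MAP kinase phosphatases and Sprouty genes 5 were higher and 3 lower at 7 h: Dusp4 rose by 2.50 (0.34 in the controls), Dusp16 by 2.18 (2.58) and Dusp1 by 2.09 (3.63), while Dusp6, a feedback phosphatase of ERK, was lower with R848+apilimod and higher in the controls, at -1.49 and 1.07. Of the 11 macrophage markers 4 were higher and 6 lower at 22 h, with Cx3cr1 lowest, Csf1r, the receptor of the macrophage growth factor, at -1.72 and Adgre1 (F4/80) at 1.51, and the controls at -1.55 and 1.83.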

How the data were processed

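RNA of RAW cells was measured on 18 Affymetrix mouse arrays after Qiagen RNeasy extraction and NuGEN Ovation amplification, per the labels' protocols. The authors deposited 1 table of intensity values, on a linear scale and already summarised per probe set; its normalization is not given in the sources used here, and limma appears in the submitters' processing notes without version or role. Values were taken as deposited and turned to log2(intensity + 16). Of 45101 probe sets, 34945 had 1 gene symbol, 932 several and 9160 none, beside 64 control probe sets; 34741 of the symbols were matched through the Entrez identifier. Probe sets that exceeded the overall median intensity (18.1) on 3 or more arrays were kept (21361 with 1 symbol), and for the 5456 genes with more than 1 the probe set with the highest mean stood for the gene, giving 12257 genes. Differences within an hour were tested two-sided with limma 3.58.1 in R 4.3.3, the spread coming from 5 pairs of arrays (5 residual degrees of freedom), so that each value sets 1 array against 1 array and assumes that apilimod arrays vary like the others. Over all hours the fit had hour as a block (10 residual degrees of freedom, median standard error 0.103). P-values were adjusted over all genes by Benjamini-Hochberg. The number of arrays limits the precision.

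Named were the largest rises and falls per hour, per class and over hours, up to 4 members of each list described with the largest difference at that hour, and a set of fixed genes, some of which are not reported here; Clcn7 and Atp6v1a as promoters, and genes given at further hours or outside these limits (Nos2, Lamp1, Sgsh, Arsb, Hmgcs1 and Ifit1 at 22 h among them), were chosen after their values were seen. The members and lists were chosen with earlier results of these data known. The alternatives tried were quantile normalization, centring, other filters, the mean over probe sets, a pseudocount of 1, a variance trend and medium at 0 h as reference. Others were R848 controls that share no array, leaving out each R848 control or 0 h medium array, and, over all hours, leaving out each hour. The R848+apilimod arrays and the medium arrays of 1 to 22 h were not left out singly.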

Additional observations from a re-analysis of the deposited data

Results flagged for a closer look

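For 2 of the fixed genes the difference between R848+apilimod and medium was called at both hours compared with opposite signs, and the change between hours passed as an interaction in limma. Changes in which 1 of the 2 hours was not called, as for Tfeb and Tlr7 at 22 h minus 3 h (-0.56 and -1.62), are not counted. For Il10 the difference at 22 h minus that at 3 h was -4.19 ± 0.14 (SE; adjusted p = 5.12e-08), and at 22 h minus that at 7 h -1.52 ± 0.14 (adjusted p = 4.40e-05). For Cxcl10 the difference at 22 h minus that at 7 h was 1.40 ± 0.18 (adjusted p = 2.70e-04), from -0.77 at 7 h and 0.63 at 22 h. Cxcl10 read 247 with R848+apilimod, 661 with R848, 768 with R848+API09 and 433 in medium at 7 h and 123 with R848+apilimod, 61.5 with R848, 52.0 with R848+API09 and 73.7 in medium at 22 h. Over all genes 3854 passed for 22 h against 3 h and 3647 for 22 h against 7 h. The medium arrays enter these changes as well: with medium at 0 h in place of the 22 h array the 22 h differences were 0.08 for Il10 and -1.18 for Cxcl10. With medium at 0 h in place of the 7 h array the 7 h difference of Cxcl10 was -0.25 and was not called. With that reference Cxcl10 therefore did not have opposite signs at 7 and 22 h.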

How the results depend on the processing

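With medium at 0 h in place of the medium array of the hour, 162 genes were called at 1 h and 3435 at 3 h, and 150 and 2355 were kept. With R848 controls that share no array with R848+apilimod against medium, 273 genes at 3 h and 796 at 22 h were seen only with apilimod. Over all hours, the 8 arrays of both arms alone called 0 genes (limma; 1871 at an unadjusted p of 0.05, smallest adjusted p 0.0699), the fit with no hour block 160 and the mean of the 4 within-hour differences 5254. R848 control arrays and 0 h medium arrays were left out 1 at a time, and for the fit over all hours each hour too. The 8 arrays compared stayed in within hours. This gave 55 to 104 called genes at 1 h, 1697 to 3298 at 3 h, 3446 to 5143 at 7 h, 5404 to 7092 at 22 h and 16 to 2647 over all hours. Kept genes ran from 52 to 94, 838 to 1934, 1959 to 3413 and 3429 to 4616 at the 4 hours. Those seen only with apilimod ran from 0 to 0, 337 to 628, 714 to 995 and 1264 to 1580, and those not seen from 0 to 0, 170 to 409, 346 to 727 and 647 to 1470. The array medians differ at 22 h: centring on them moved the median of all genes from 0.02 to 0.21 with R848+apilimod, and the split of called genes to 4333 higher and 2488 lower, of kept genes to 3245 and 1578, of genes seen only with apilimod to 682 and 627, and of those not seen to 479 and 294. Quantile normalization gave 2176 and 2147 kept genes at 22 h, and 399 and 428 not seen. Over all hours centring gave 707 and 765. Leaving out an R848 control or 0 h array cannot move a within-hour difference from medium, only its p-value. The direction of those recomputed values was therefore fixed, and each such setting gave 309 of the values counted next. For the named genes, 5493 of the recomputed values kept their direction and side of the threshold, 106 lost the call, 30 gained it and 4 turned, all with medium at 0 h as the reference: Cxcl10 at 22 h to -1.18, Il10 at 22 h to 0.08, Cxcr4 at 1 h to 0.19 and Lhfpl2 at 1 h to 0.12. The cause was not tested. Of the genes named as not seen under apilimod, Angpt2, Cd69, Cxcl10 and Errfi1 at 3 h, Serpinb2, Fpr2 and Cldn11 at 7 h, and Dcstamp, Il33, Rgs2 and Arsb at 22 h passed against medium under at least 1 alternative, at -0.66 and -1.82 for Dcstamp and between -0.30 and 0.97 for the others. With centring the difference of Il10 at 22 h was -0.16 (adjusted p = 0.267, limma).

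The fit over all hours pairs the arms by hour. By replicate number no paired analysis was possible because only the 2 medium arrays at 0 h carry such numbers. The filter removed 285 probe sets that passed its level on only 1 or 2 R848+apilimod arrays and on no other array, which left 152 genes untested, with a highest intensity of 335.9. Dim genes have understated differences, and a lone array an hour leaves the spread of the apilimod arrays unmeasured.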
